A study of Mus musculus with 16 samples.

Results

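The immunoglobulin variable (V) genes were examined in RNA sequenced from sorted lymph node macrophages. Members were chosen by their counts: every row of the count table whose symbol starts with Ighv, Igkv or Iglv and whose counts, summed over all columns, reached 10. Of 348 V gene rows among the 55423 rows of the table, 92 met this total, 39 of 185 Ighv genes, 50 of 160 Igkv genes and all 3 Iglv genes. A further 184 V rows had 0 counts and 72 had between 1 and 9. At the edge of the rule, Igkv1-122, Ighv1-23 and Ighv1-41 had exactly 10 counts, and Ighv1-77 just missed it with 9. The 92 members held 108151 counts and the rows below the total held 268.

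The study sorted subcapsular sinus macrophages (SSMs, CD11c-) and medullary sinus macrophages (MSMs, CD11c+) from tumor-draining lymph nodes (tdLNs) and non-draining nodes (ndLNs). All nodes came from male C57B/6 mice, 2 weeks after 500000 MOC2 cells, a mouse squamous cell carcinoma line, had been implanted in the skin of the flank, so the ndLNs also come from tumor-bearing mice. Each pool held the nodes of 2 mice, 2 tdLNs or 6 ndLNs, and about 10000 cells were sorted per group through a gate that kept CD45+ CD11b+ CD169+ cells and left out cells stained for CD3, B220 or Ly6G. There were 2 libraries in each of the 4 groups, named here by subset, node and pool (SSM ndLN 1 is the library of SSMs from the ndLNs of pool 1), and each was sequenced on 2 lanes. The label of SSM tdLN 1 gives no pool number, and pool 1 was assumed for it.

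Antibodies are made of heavy and light chains, and each chain starts with a V region. In a developing B cell, recombination joins 1 V gene of the heavy chain locus (Ighv) and 1 of a light chain locus, kappa (Igkv) or lambda (Iglv), to shorter gene segments. The cell and its descendants then keep that choice, so that the V genes transcribed in a mixed B cell population are many and those of a single clone are few. Plasma cells, the antibody-secreting descendants of B cells, hold very large amounts of these transcripts.

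The germline sequences of the V genes on which the values turn show what a read counted on them can look like. Each line below gives the last 60 bases of the coding V exon, 5′ to 3′ on the coding strand, from the GENCODE M21 transcripts (GRCm38). Capitals run from the conserved cysteine codon to the end of the exon and mark the germline part of the third complementarity-determining region, which recombination extends. The 3 heavy chain genes lie on the minus strand of chromosome 12, at chr12:114708648-114708707 for Ighv1-19, chr12:114153180-114153239 for Ighv7-3 and chr12:115952538-115952597 for Ighv1-82. Igkv10-96 (chr6:68631963-68632022, minus strand), Igkv1-135 (chr6:67610449-67610508, plus strand) and Igkv12-44 (chr6:69814631-69814690, minus strand) are kappa genes. Iglv2 (chr16:19260401-19260460) and Iglv1 (chr16:19085017-19085076), on the minus strand, are lambda genes.
Ighv1-19: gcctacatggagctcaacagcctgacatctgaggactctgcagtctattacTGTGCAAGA
Ighv7-3: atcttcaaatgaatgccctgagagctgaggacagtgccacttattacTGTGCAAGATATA
Ighv1-82: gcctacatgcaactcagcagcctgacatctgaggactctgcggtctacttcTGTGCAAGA
Igkv10-96: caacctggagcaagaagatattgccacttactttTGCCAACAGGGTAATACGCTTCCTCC
Igkv1-135: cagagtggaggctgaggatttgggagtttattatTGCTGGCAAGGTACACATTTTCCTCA
Igkv12-44: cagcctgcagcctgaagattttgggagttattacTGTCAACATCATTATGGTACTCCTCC
Iglv2: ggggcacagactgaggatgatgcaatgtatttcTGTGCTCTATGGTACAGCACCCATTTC
Iglv1: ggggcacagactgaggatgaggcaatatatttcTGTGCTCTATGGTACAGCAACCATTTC

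These genes have close relatives, and reads of near-identical copies can be counted on the wrong one. Over whole coding V exons Iglv2 and Iglv1 were 97.0% identical, and Ighv1-82 and Ighv1-80 were 96.1% identical. Of all 50-base windows in a member's transcript, a median of 20.8% also occurred in another gene, 15 members had no such window and 11 shared over 50% of theirs. In the libraries some relatives separated. SSM tdLN 2 held 7878 counts of Ighv1-82 and 1 of Ighv1-80, and SSM tdLN 1 held 3 and 1454. Of Iglv2 and Iglv1, SSM tdLN 1 held 1 and 539 counts, but MSM ndLN 1 held 11067 and 178, and MSM tdLN 2 held 40 and 86. Whether reads were miscounted between these lambda genes was not tested. Igkv10-96 shared 32.6% of its windows, and its nearest relative, Igkv10-94 (94.6% identity), had at most 1 count in each of the libraries where Igkv10-96 was high.

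The V genes together took between 307 counts in SSM ndLN 1 and 42884 in SSM tdLN 2, of libraries that held between 42972328 and 48130352 counts. Scaled to the library total (CPM), the levels were 6.39 and 374 in the ndLN pools of SSMs, 353 and 990 in their tdLN pools, 459 and 25.0 in the ndLN pools of MSMs and 226 and 40.04 in their tdLN pools. As a ratio, the 2 pools of SSMs from ndLNs differed the most, and in each of the other groups the pools also stood far apart. As mean ± SD over the 2 pools, this is 190 ± 260 CPM in SSMs from ndLNs, 671 ± 451 in SSMs from tdLNs, 242 ± 307 in MSMs from ndLNs and 133 ± 131 in MSMs from tdLNs. The SSM tdLN range lay above the MSM tdLN range, and every other pair of groups overlapped. In bulk RNA of this kind, fewer cells of a type and less RNA per cell cannot be told apart.

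**Figure D1:**
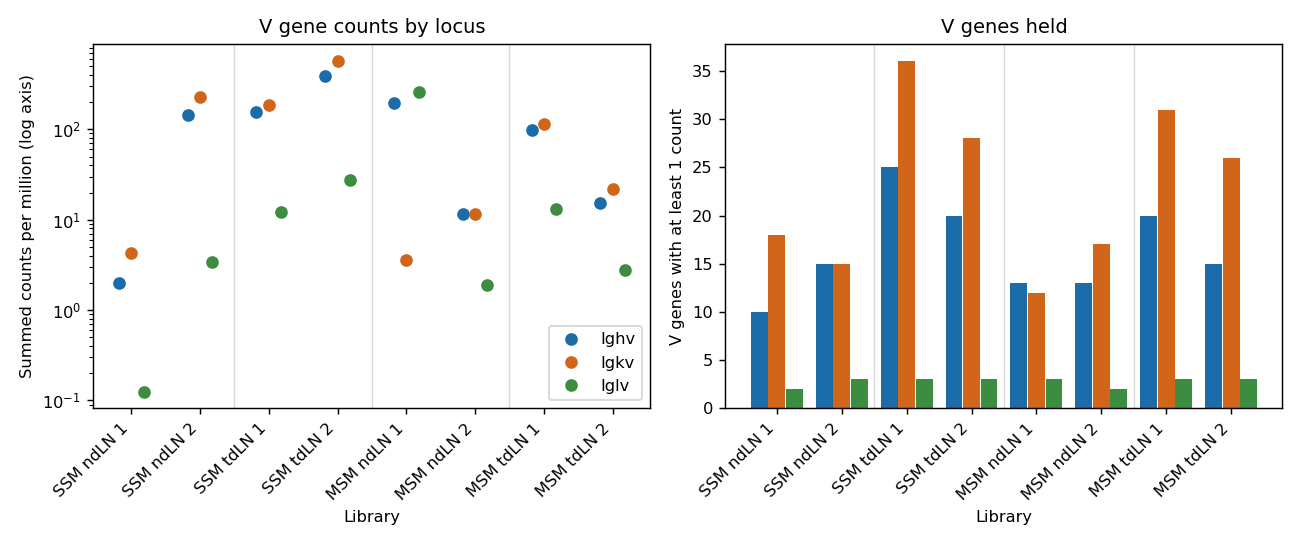
Summed CPM of the Ighv, Igkv and Iglv members in each library (left, log axis, 1 point per locus) and the number of members with at least 1 count (right, 1 bar per locus). SSM ndLN 1 has the lowest level at each locus except Igkv, where MSM ndLN 1 is lower, and the Iglv level of MSM ndLN 1 is above that of every other library.

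Heavy and kappa counts of a library were of similar size, with 1 exception. Ighv genes held 95 and 6214 counts in SSM ndLN 1 and 2, 7133 and 16674 in SSM tdLN 1 and 2, 8425 and 538 in MSM ndLN 1 and 2, and 4245 and 742 in MSM tdLN 1 and 2. Igkv genes held 206 and 9705, 8583 and 25014, 155 and 536, and 4896 and 1052 counts in the same order. The exception was MSM ndLN 1, whose light chain counts lay almost wholly on lambda genes. There, Iglv genes held 11247 counts, 98.6% of all light chain V counts, against 1.48% to 14.2% in the other 7 libraries. Light chain V counts were 1.16 to 2.23 times the heavy chain V counts in all 8 libraries, MSM ndLN 1 included (1.35 times).

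Each library held between 28 and 64 of the 92 members at 1 count or more. SSM tdLN 1 held 64, MSM tdLN 1 54, SSM tdLN 2 51 and MSM tdLN 2 44, whereas SSM ndLN 2 held 33, MSM ndLN 2 32, SSM ndLN 1 30 and MSM ndLN 1 28. All 4 tdLN libraries thus lay above all 4 ndLN libraries. Deeper V coverage did not go with more V genes among the ndLN libraries: MSM ndLN 1 had 19827 V counts on 28 genes and SSM ndLN 1 had 307 on 30. At a minimum of 10 counts per gene the range was 8 to 28, and the tdLN and ndLN libraries overlapped, since MSM ndLN 2 held 20 and MSM tdLN 2 held 17. Only 3 members had a count in all 8 libraries, namely Igkv10-96, Iglv1 and Iglv2, and no member had 10 or more counts in all 8. By that minimum, 46 members were present in 1 library, 19 in 2, and 14 in none.

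A few genes made up most of the V counts. Of the counts on all members, Ighv1-19 took 15.1%, the top 2 members 28.6%, the top 5 (Ighv1-19, Igkv10-96, Iglv2, Igkv1-135 and Igkv12-44) 56.3%, the top 10 83.3% and the top 20 97.1%. Members varied little in exonic length (297 to 461 bases, median 363), and these shares are shares of reads. Within a library, 3 of the 8 held a single heavy chain gene at over 90% of the Ighv counts. Ighv1-19 took 98.3% in SSM ndLN 2 (95% Clopper-Pearson interval 97.9% to 98.6%, counting error only) and 92.3% in MSM tdLN 1 (91.4% to 93.1%), and Ighv7-3 took 97.9% in MSM ndLN 1 (97.6% to 98.2%). In MSM ndLN 2 Ighv1-19 led with 74.7%, in MSM tdLN 2 Ighv13-2 with 75.2%, in SSM tdLN 2 Ighv1-82 with 47.2%, in SSM ndLN 1 Ighv7-1 with 45.3% and in SSM tdLN 1 Ighv1-58 with 27.7%.

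The kappa genes showed the same kind of skew. Igkv1-135 took 98.2% of Igkv counts in SSM ndLN 2 and Igkv10-96 took 90.5% in MSM tdLN 1. Igkv10-96 also led MSM tdLN 2 with 60.7% and SSM tdLN 1 with 46.6%, and Igkv12-44 led SSM tdLN 2 with 36.3%. The 3 libraries with fewest kappa counts were led by other genes, MSM ndLN 1 by Igkv4-86 (59.4% of 155 counts), SSM ndLN 1 by Igkv7-33 (49.0% of 206) and MSM ndLN 2 by Igkv14-126 (16.6% of 536). Among the 3 lambda genes, Iglv2 led MSM ndLN 1 with 98.4% and SSM ndLN 1 with 4 of 6 counts, and Iglv1 led the other 6 libraries with 64.7% to 96.8%.

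The inverse Simpson number, the count of equally used genes that would give the same concentration, puts this on 1 scale. For Ighv genes it was 3.71 and 1.03 in SSM ndLN 1 and 2, 4.76 and 2.66 in SSM tdLN 1 and 2, 1.04 and 1.76 in MSM ndLN 1 and 2, and 1.17 and 1.73 in MSM tdLN 1 and 2. For Igkv genes the values were 3.57 and 1.04, 3.27 and 3.77, 2.54 and 10.2, and 1.22 and 2.50. No library reached the equivalent of 5 equally used heavy chain genes, and for kappa MSM ndLN 2 alone did. Both SSM tdLN libraries lay above the other libraries with over 1000 counts on the locus, at 2.66 or more for Ighv and 3.27 or more for Igkv. The 5 leading genes held a median of 98.0% of the Ighv counts and 93.4% of the Igkv counts over the 8 libraries, and with counts per kb of exon these medians were 97.8% and 93.5%.

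**Figure D2:**
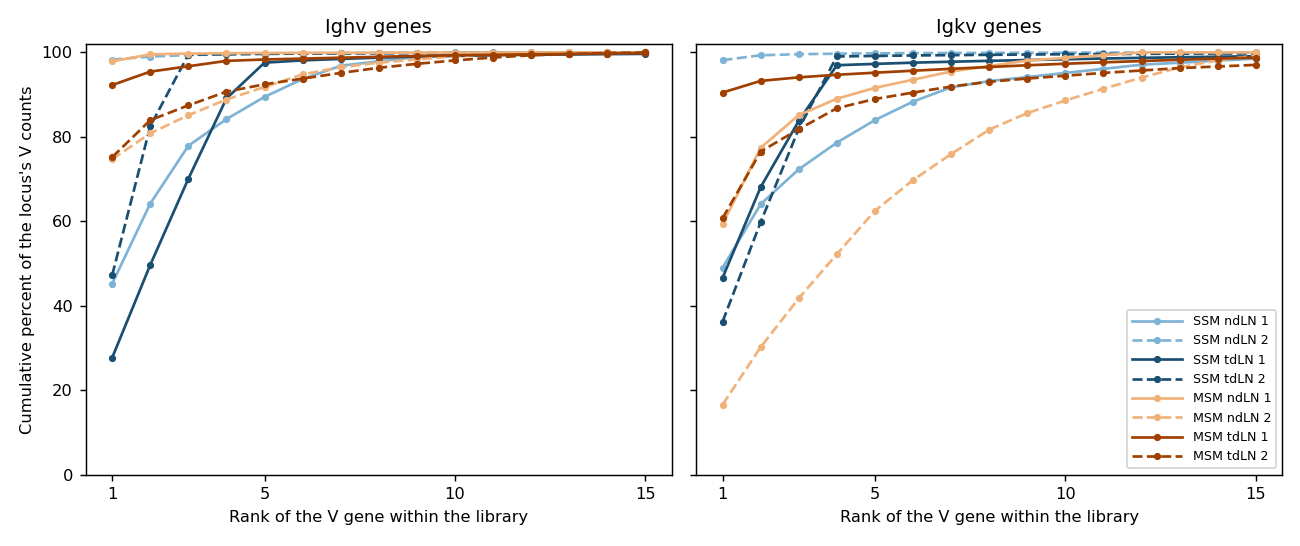
Cumulative percent of the Ighv (left) and Igkv (right) counts of a library against the rank of the gene within it, for the 15 highest ranks. Colors mark the 4 groups, solid lines pool 1 and dashed lines pool 2; SSM ndLN 2 starts above 98% at both loci, and MSM ndLN 2 has the shallowest Igkv curve, starting at 16.6%.

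Many V genes were carried by 1 library. Taking a gene as carried by 1 library where at least 90% of its summed CPM lay there, 34 of 92 members (37%) were, and they held 66.7% of all V counts. The share was higher among abundant members, with 18 of 24 (75%) at 100 counts or more and 15 of 18 (83.3%) at 1000 or more. Over all genes of the table with at least 10 counts it was 695 of 21086 (3.3%), and with at least 1000 counts 18 of 10713 (0.168%), 15 of which were the V genes just counted. The other 3 were Ighg2c and Iglc2, which are immunoglobulin constant genes, and Prss34, a mast cell and basophil protease. Among the variable genes of the T cell receptor, which recombine in T cells in a similar way, 0 of 84 with at least 10 counts and 0 of 8 with at least 1000 were carried by 1 library. These shares are descriptions, and no test was made of their difference.

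**Figure D3:**
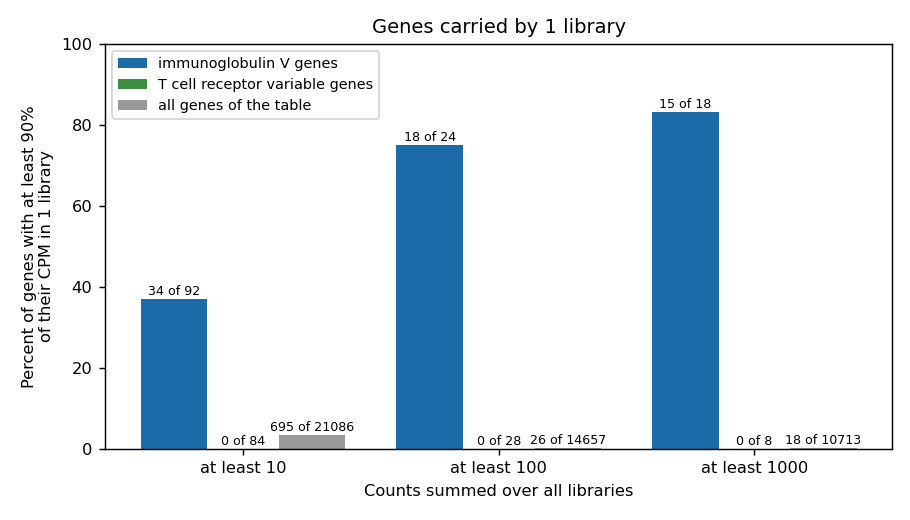
Percent of genes with at least 90% of their CPM in 1 library (vertical axis) for genes with at least 10, 100 or 1000 summed counts, for immunoglobulin V genes, T cell receptor variable genes and all genes of the table. The V gene bars stand at 37%, 75% and 83.3%, and the others at or below 3.3%.

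SSM tdLN 1 carried 11 of the 34 genes, SSM tdLN 2 and MSM ndLN 2 carried 6 each, MSM ndLN 1 carried 4, SSM ndLN 2 carried 3, MSM tdLN 2 carried 2, and SSM ndLN 1 and MSM tdLN 1 carried 1 each. The 5 with the most counts were Iglv2, Igkv1-135, Igkv12-44, Ighv7-3 and Ighv1-82. Iglv2 had 11067 counts in MSM ndLN 1 and between 1 and 40 elsewhere. Igkv1-135 had 9527 in SSM ndLN 2 and at most 33 elsewhere, and Igkv12-44 had 9069 in SSM tdLN 2 and at most 24 elsewhere. Ighv7-3 had 8248 in MSM ndLN 1 and no more than 1 in any other library, and Ighv1-82 had 7878 in SSM tdLN 2 and at most 6 elsewhere. For each of these genes a single pool of 2 mice, and within it a single sorted subset, held nearly every count.

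In the libraries with many V counts, a heavy and a light chain gene often stood out together. MSM ndLN 1 held Ighv7-3 and Iglv2, which made up 41.6% and 55.8% of its V counts. SSM ndLN 2 held Ighv1-19 and Igkv1-135, with 38.0% and 59.3% of its V counts. MSM tdLN 1 held Ighv1-19 and Igkv10-96, with 40.4% and 45.7%. The count table does not tie a heavy chain to a light chain, so whether such genes came from the same cells cannot be read from it. The SSM tdLN libraries had several leading genes on each chain. SSM tdLN 2 held Ighv1-82 (7878 counts), Ighv1-19 (5884) and Ighv2-2 (2825), beside Igkv12-44 (9069), Igkv4-53 (5894), Igkv10-96 (5523) and Igkv8-24 (4292). SSM tdLN 1 held Ighv1-58 (1977), Ighv1-18 (1568), Ighv1-80 (1454), Ighv8-8 (1356) and Ighv1-5 (605), beside Igkv10-96 (4003), Igkv12-98 (1842), Igkv6-15 (1347) and Igkv3-7 (1131).

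**Figure D4:**
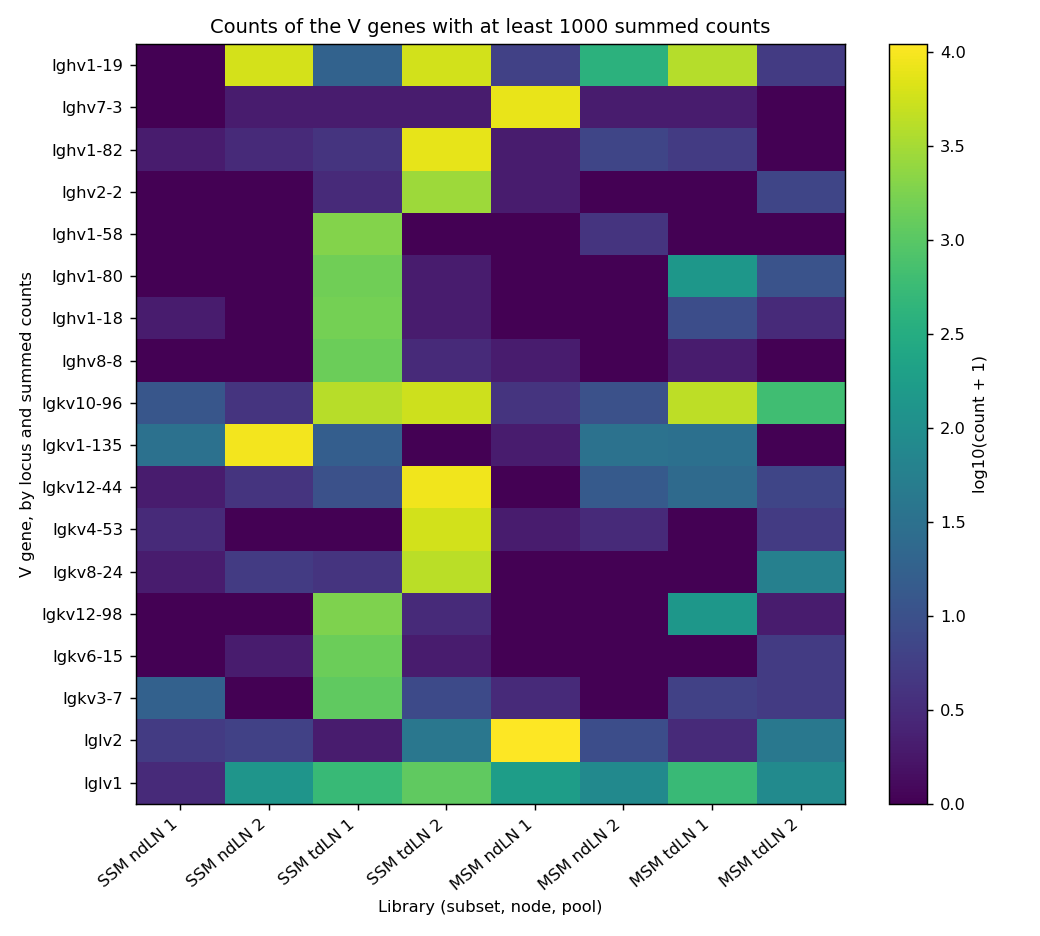
Counts, as log10(count + 1) in color, of the 18 V genes with at least 1000 summed counts (rows, by locus) in the 8 libraries (columns). Most rows have a single bright cell, Igkv10-96 is bright in all 4 tdLN libraries, and Iglv1 has counts in every library.

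The exceptions were Ighv1-19, Igkv10-96 and Iglv1, the members with over 1000 counts that were not carried by 1 library. Ighv1-19 had 0 and 6108 counts in SSM ndLN 1 and 2, 18 and 5884 in SSM tdLN 1 and 2, 5 and 402 in MSM ndLN 1 and 2, and 3917 and 4 in MSM tdLN 1 and 2. It was thus high in 1 pool of each group and near 0 in the other. Iglv1 had 2 and 126, 539 and 1144, 178 and 81, and 546 and 86 counts in the same order, a spread without a single dominant library.

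In 12 of 92 members (13%), every tdLN library lay above every ndLN library in CPM, beside 2.6% of all genes tested. The reverse held for 1 member, and its share over all genes was not counted. This was Igkv7-33, with 101 and 12 counts in SSM ndLN 1 and 2, 4 and 31 in MSM ndLN 1 and 2, and 0 in each tdLN library. Igkv10-96 had the most counts of the 12 and was the only one with over 100 in all 4 tdLN libraries. The other 11, among them Igkv12-98, Ighv1-80, Ighv1-18, Ighv13-2, Igkv6-23, Igkv19-93 and Igkv8-30, had at most 2 counts in any ndLN library and between 1 and 6 in their lowest tdLN library. Ighv1-18 had 1 count in both SSM ndLN 1 and SSM tdLN 2, so their order came from the library totals alone. Igkv12-98, Ighv1-80, Ighv1-18 and Ighv13-2 were each also carried by 1 library. Igkv19-93, for example, had 5 and 7 counts in SSM tdLN 1 and 2, 10 and 23 in MSM tdLN 1 and 2, and at most 2 in the ndLN libraries. The coding V exon of Igkv10-96 lies at chr6:68631963-68632260 on the minus strand (GRCm38) and reads, 5′ to 3′ with the capitals as above, as follows.
Igkv10-96: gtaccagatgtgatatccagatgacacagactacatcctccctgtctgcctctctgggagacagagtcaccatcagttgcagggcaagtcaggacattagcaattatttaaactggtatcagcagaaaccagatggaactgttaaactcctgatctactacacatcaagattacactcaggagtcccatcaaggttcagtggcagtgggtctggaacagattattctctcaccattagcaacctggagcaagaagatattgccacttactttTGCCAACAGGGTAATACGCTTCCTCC
It had 11 and 3 counts in SSM ndLN 1 and 2 and 3 and 9 in MSM ndLN 1 and 2. It had 4003 and 5523 counts in SSM tdLN 1 and 2 and 4431 and 639 in MSM tdLN 1 and 2. Every tdLN library was therefore above every ndLN library, in both subsets and both pools. In SSMs the CPM was 107 ± 28.8 in tdLNs and 0.149 ± 0.112 in ndLNs (mean ± SD, n = 2). The ratio of summed counts, each divided by the summed library totals of its group, was 692. Its 95% counting interval of 412.5 to 1267 does not cover the variation between mice. In MSMs the CPM was 58.1 ± 63.4 in tdLNs and 0.131 ± 0.0878 in ndLNs, a ratio of 416 (238 to 805).

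The test fitted all 21085 genes with a minimum of counts by edgeR's quasi-likelihood test with subset-by-node group and pool as terms, and called a gene at an adjusted p-value under 0.01 with a mean normalized count over 100 per lane. With 2 libraries per group and pool in the model, p-values measure the spread left after a shift common to same-numbered libraries is removed. They do not measure the full spread between pools of 2 mice. The spread left was wide for V genes: the median biological coefficient of variation in this fit was 1.27 over the members and 0.458 over all genes. In SSMs from tdLNs, 14 of 16 members with at least 1 CPM in a pool differed by over 10-fold between the pools, against 19 of 12429 genes (0.153%) overall. The numbers were 2 of 6 in SSMs from ndLNs, 2 of 11 in MSMs from ndLNs and 2 of 12 in MSMs from tdLNs, against 0.0249% to 0.0845% of all genes in these groups. For all these numbers 1 was added to each CPM first, so genes at only a few CPM could not reach 10-fold. Iglv1, at 0.0416 and 2.93 CPM in SSM ndLN 1 and 2, was not counted for that reason.

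Between tdLNs and ndLNs in SSMs, 10 of 92 members were called, 9 higher and 1 lower in tdLNs, beside 3.03% of all genes tested. Igkv10-96 rose, with a log2 fold change of 9.90 (SE 1.11, adjusted p = 0.00158). No other member kept its call in a model without the block on pool, where its adjusted p was 0.00125. It was called in 5 of 8 fits that left out 1 library and lost the call, at an adjusted p of at most 0.0375, without SSM ndLN 1, SSM ndLN 2 or SSM tdLN 2. The 8 other members that rose were Igkv12-44, Ighv1-82, Igkv4-53, Igkv8-24, Ighv2-2, Ighv1-58, Igkv12-98 and Ighv1-18. Each was high in 1 of the 2 SSM tdLN pools and at 9 counts or fewer in the other, so these calls rest on 1 library each. Igkv12-98, Ighv2-2, Ighv1-18 and Ighv1-58 lost the call whichever of the 8 libraries was left out. Calls over all genes also fell in every fit that left out 1 library, so lost calls are not particular to these members. Ighv1-82, for example, had 3 and 7878 counts in SSM tdLN 1 and 2 and 1 and 2 counts in SSM ndLN 1 and 2. Ighv1-58 had 1977 and 0 counts in SSM tdLN 1 and 2 and 0 in both SSM ndLN libraries, which makes the summed level at least 671-fold higher, with the floor set at 3 counts over both ndLN libraries. Igkv1-135 fell by 8.86 on the log2 scale (SE 0.50, adjusted p = 0.00224), from 31 and 9527 counts in SSM ndLN 1 and 2 to 15 and 0 in SSM tdLN 1 and 2. The fall too rests on SSM ndLN 2, and without that library the call was lost, as it was without either SSM tdLN library. Over all 92 members the median log2 fold change was 3.15, and 24 (26.1%) had an unadjusted p-value under 0.05, beside 23% of all genes tested.

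Between SSMs and MSMs in tdLNs, 8 members were called, all higher in SSMs, beside 8.69% of all genes. They were Igkv12-44 (log2 fold change 8.08, SE 0.47, adjusted p = 0.000795), Ighv1-82 (10.87), Igkv4-53 (10.48), Ighv2-2 (8.88), Ighv1-58 (12.89), Ighv1-18 (7.13), Igkv8-24 (6.31) and Igkv12-98 (3.64). No call held without pool in the model, and in none did both SSM libraries lie above both MSM libraries. All 8 lost the call without SSM tdLN 2 or MSM tdLN 2, where fewer genes were called over all genes too. For Ighv1-19 the direction turned on the MSM library left out. Its log2 fold change was -8.57 without MSM tdLN 2 and 10.57 without MSM tdLN 1. Igkv12-98, with 1842 and 2 counts in SSM tdLN 1 and 2, also had 135 and 1 in MSM tdLN 1 and 2, so the pool that was high in SSMs was also the higher one in MSMs. Igkv8-24 likewise had 3 and 4292 counts in SSM tdLN 1 and 2 and 0 and 56 in MSM tdLN 1 and 2. The share of members called, 8.7%, was close to the share of all genes.

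Between SSMs and MSMs in ndLNs, 3 members were called beside 12.1% of all genes. Igkv1-135 was higher in SSMs (log2 fold change 7.80, SE 0.45, adjusted p = 0.000391), with 31 and 9527 counts in SSM ndLN 1 and 2 and 1 and 33 in MSM ndLN 1 and 2. Ighv7-3 (log2 fold change -13.11, adjusted p = 0.00046) and Iglv2 (-10.36, adjusted p = 0.000147) were lower in SSMs, and both rest on MSM ndLN 1. Ighv7-3 and Iglv2 lost the call without MSM ndLN 1 or SSM ndLN 1, and Igkv1-135 lost it without SSM ndLN 2 or MSM ndLN 2. Fewer genes were called over all genes in these fits too. No member was called without the block on pool.

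Between tdLNs and ndLNs in MSMs, 0 members were called by edgeR, beside 0.0237% of all genes. An unadjusted p-value under 0.05 was found for 20 members (21.7%, beside 11.9% of all genes), and a DESeq2 Wald test called 4 (4.35%, beside 2.35%). Igkv10-96 had a log2 fold change of 8.43 (SE 1.20) at an adjusted p of 0.0203, and 0.0178 without the block, past the 0.01 threshold on neither, and was among the members called by DESeq2 (adjusted p = 3.18e-09). Iglv2 (-7.63, adjusted p = 0.012) and Ighv7-3 (-12.77, adjusted p = 0.0183) were the nearest others, again through MSM ndLN 1. For the interaction of subset and node, 0 members were called by edgeR, beside 0.0379% of all genes, with 5 at an unadjusted p under 0.05 (beside 12.3% of all genes) and 1 called by DESeq2 (beside 3.21%). The interaction for Igkv10-96 was 1.47 (SE 3.86, adjusted p = 0.999), too imprecise to show whether its rise differed between subsets.

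The leading V genes of 2 libraries overlapped in part. Among the 10 leading V genes of each library, SSM ndLN 2 and MSM ndLN 2 had 4 in common (Ighv1-19, Igkv1-110, Igkv1-135 and Iglv1), SSM tdLN 1 and MSM tdLN 1 had 4 (Ighv1-80, Igkv10-96, Igkv12-98 and Iglv1), SSM tdLN 2 and MSM tdLN 2 had 4 (Igkv10-96, Igkv8-24, Iglv1 and Iglv2), and SSM ndLN 1 and MSM ndLN 1 had 0. The 2 pools of a group had 1 to 3 in common (median 2). Libraries of the other subset and the other pool, from the same kind of node, had 1 to 4, the 4 being Ighv1-19, Igkv10-96, Igkv12-44 and Iglv1 in SSM tdLN 2 and MSM tdLN 1. A chi-square over members with at least 20 counts, divided by its degrees of freedom, was 0.533 to 1.73 between the lanes of a library, where counting noise alone gives about 1. Between the pools of a group, taken on lane 3 alone over 6 to 17 members, it was 333 to 1465. Over all genes the values were 0.955 to 1.02 between lanes and 29.3 to 53.1 between pools on lane 3, so that pools differed beyond counting noise in genes at large.

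The genes next to the V genes in an antibody transcript showed related patterns. Ighg1, the constant gene of IgG1, had 59 and 19 counts in SSM ndLN 1 and 2, 32276 and 74019 in SSM tdLN 1 and 2, 31 and 39 in MSM ndLN 1 and 2, and 18565 and 4086 in MSM tdLN 1 and 2. Like Igkv10-96 it was high in the 4 tdLN libraries, and it was the 1 gene of 13 on a list of constant genes and J chain that was called between nodes in SSMs (log2 fold change 10.82, SE 1.13, adjusted p = 0.00255). Over all genes, 3.03% were called in that comparison. Ighg2c, the constant gene of IgG2c, had 26696 counts in SSM ndLN 2 and 1643 in MSM ndLN 2, and at most 88 in any other library. Those are the ndLN libraries led on the heavy chain by Ighv1-19. In tdLNs the genes did not go together: SSM tdLN 2 held 5884 counts of Ighv1-19 and 1 of Ighg2c, and MSM tdLN 1 held 3917 and 31. Iglc2, a lambda constant gene, had 18290 counts in MSM ndLN 1, where Iglv2 was high, and at most 200 elsewhere. Ighm, the constant gene of IgM, had 56945 counts in that same library and 9003 to 14169 in the others. Igkc, the kappa constant gene, was the highest gene of the list per length (543 CPM per kb) and ranged from 755 counts in MSM ndLN 1 to 50632 in SSM tdLN 2.

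**Figure D5:**
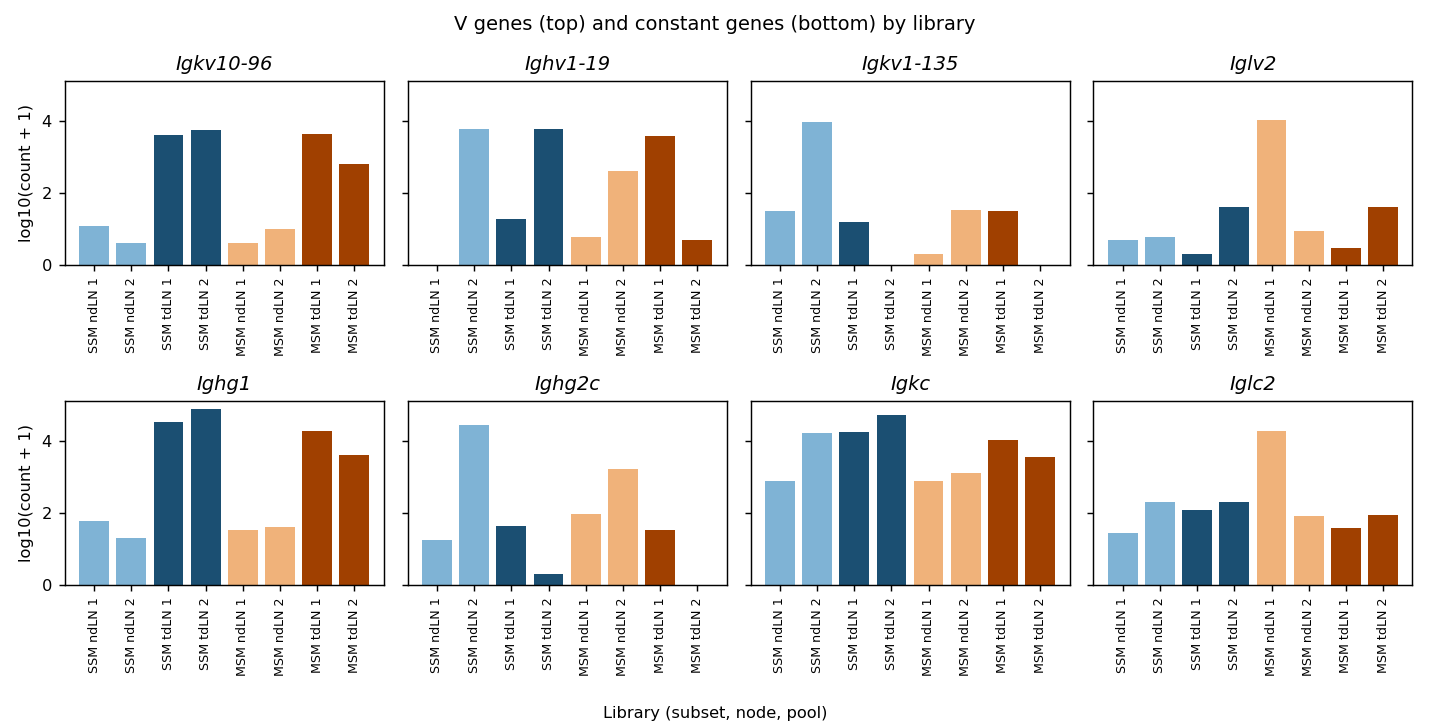
Counts, as log10(count + 1), of 4 V genes (top) and 4 constant genes (bottom) in the 8 libraries, colored by group. Igkv10-96 and Ighg1 are high in the 4 tdLN libraries, Igkv1-135 and Ighg2c peak in SSM ndLN 2, and Iglv2 and Iglc2 peak in MSM ndLN 1.

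Markers of antibody-producing cells were mixed. Jchain, which links the units of secreted IgM and IgA, had 62 and 2398 counts in SSM ndLN 1 and 2, 1832 and 3065 in SSM tdLN 1 and 2, 4193 and 86 in MSM ndLN 1 and 2, and 2282 and 200 in MSM tdLN 1 and 2. The 5 libraries with the most V counts were the 5 with the most Jchain counts. Among 12 plasma cell markers, the receptor Tnfrsf17 and the chaperone Mzb1 were under 1 CPM in all 8 libraries, and the summed level of the list ranged only from 793 to 1276 CPM, led per length by Xbp1. Between nodes in SSMs, 1 of the 12 rose (Prdm1) and 0 fell, beside 3.03% of all genes called. Sdc1, which encodes the plasma cell marker CD138, and Prdm1 were higher in SSMs than MSMs in both nodes, whereas Slamf7, a surface receptor, was lower in SSMs in both. In ndLNs Pou2af1 was also higher in SSMs and Txndc5 lower, so that 3 of 12 markers were called higher and 2 lower there, and 2 higher and 1 lower in tdLNs. Over all genes, 12.1% were called between subsets in ndLNs and 8.69% in tdLNs. The part of these markers in the V gene values was not tested.

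B cell markers other than Blk were low. The summed level of 12 markers was 37.4 to 217 CPM, with Pax5 under 1 CPM in all libraries and Blk the highest per length, and 0 of 12 were called between nodes in either subset. Over all genes, 3.03% were called between nodes in SSMs and 0.0237% in MSMs. Blk alone had 113 and 163 CPM in SSM ndLN 1 and 2. Between subsets, Blk was called higher in SSMs in both nodes and Cd22 lower in SSMs in ndLNs, beside 12.1% of all genes in ndLNs and 8.69% in tdLNs. Of 6 genes of V(D)J recombination and B cell precursors, 5 (Rag1, Rag2, Dntt, Igll1 and Vpreb2) were under 1 CPM in all libraries, which leaves Vpreb1, and of 8 germinal center and class switching genes 0 were called between nodes in either subset. Macrophage, T cell and dendritic cell lists of 8 genes each had summed levels of 4223 to 21700, 453 to 1717 and 856 to 4276 CPM, led per length by Lyz2, Trac and Ccr7. Between nodes in SSMs, 5 macrophage markers rose and 2 T cell markers fell, with 0 of 8 dendritic cell markers called, beside 3.03% of all genes. In MSMs 0 genes of any of these lists were called between nodes, beside 0.0237% of all genes. Between subsets, 7 T cell markers were called higher in SSMs and 1 lower in ndLNs, and 6 and 1 in tdLNs. For macrophage markers these numbers were 4 and 2, and 5 and 0. For dendritic cell markers they were 0 and 5, and 0 and 6. Siglec1, which encodes the CD169 used in the sort, had 419 to 3124 counts in SSM libraries and 31 to 256 in MSM libraries, and Csf1r, the receptor that sustains macrophages, had 8141 to 84180 counts.

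Members were found in every part of the Ighv and Igkv loci. With the Ighv rows on chromosome 12 divided into 4 equal parts from the joining segments outward, 10 of 47, 6 of 46, 8 of 46 and 15 of 46 rows were members, with 3277, 9577, 18072 and 13294 counts. For Igkv on chromosome 6, 17, 11, 10 and 12 of 40 rows in each were members, with 7606, 15275, 16946 and 10434 counts. The part nearest the joining segments thus held the most Igkv members, and the part farthest from them the most Ighv members. By family, Ighv1 was the largest, with 22 members of 93 rows and 30494 counts, and Igkv4 had 12 members of 33 rows but 6209 counts, 5894 of them from Igkv4-53 in SSM tdLN 2. Pseudogenes made up 130 of the 348 V rows but 3 of the 92 members, and 116 of them had 0 counts, whereas 68 of 218 functional V genes had 0. The functional V genes at 0 shared a median of 21.4% of their 50-base windows with other genes, close to the 20.8% of the members.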

How the data were processed

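Per the labels and the paper, libraries of sorted SSMs and MSMs were made with the SMART-Seq v4 kit and read on lanes 3 and 4. The authors deposited raw read counts per gene for 16 samples. The submitters' processing notes name the build GRCm38, bcl2fastq 2.20.0.422, Trimmomatic 0.36 and STAR 2.5.3a. The strand setting, the treatment of reads with several matches and the annotation release are not given in the sources used here. All 16 columns were mapped to samples.

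Here, the lanes were summed to 8 libraries. Symbols came from GENCODE M21, which matched 55154 IDs, and sequences from its transcripts. The members and lists were chosen with earlier results of these data known. Genes with at least 10 counts, detected in at least 2 samples, were fitted with TMM factors in edgeR 4.0.16 (R 4.3.3) with group and pool, and p-values were adjusted by Benjamini-Hochberg. Pool was a term because the study's models hold one, and its methods state that each pool gave all 4 sorted groups. The labels number 2 pools, the methods 4. The label of SSM tdLN 1 holds no pool number. It was taken as pool 1, and the pool term rests on that assignment. Deviations of same-numbered libraries from their group means correlated by -0.146 to 0.163 (Pearson r over 10000 genes), so the libraries shared little by number. The fit was tested on simulated data for SSMs against MSMs in ndLNs, with changes equal in both libraries of a group. That setting does not resemble genes high in 1 library of a pair, so it cannot speak for the V gene calls. DESeq2 1.42.0, Python 3.11.15, pandas 2.3.3 and scipy 1.17.1 were also used. A floor of 3 counts was worth 0.0623 to 0.0698 CPM in a library, and intervals and floors cover counting error only.

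Named genes were, by rule, the leading member of each locus in each library, the 5 members with the most counts, every called member, the 5 most counted of those carried by 1 library, the rows at the edge of the total, and the gene of each list with the highest level per length. Other genes named were singled out after their values were seen. Alternatives were the model without pool, DESeq2 size factors, a DESeq2 Wald test, no filter, each lane alone, other thresholds, factors without V genes and each library left out. Counts per kb, a Holm adjustment and the genes carried by 1 library without each library were added after the data were seen. V gene promoters and proteins, mutations and junction sequences were not analysed here, and 1 marker gene is not reported here.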

Additional observations from a re-analysis of the deposited data

Results flagged for a closer look

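The effect of the node on Iglv2 differed between subsets, by an interaction of 10.18 on the log2 scale (SE 1.24). The adjusted p was 0.0402 by edgeR's quasi-likelihood test, under 0.05 but not under the 0.01 used for calls. Iglv2 had 4 and 5 counts in SSM ndLN 1 and 2, 1 and 39 in SSM tdLN 1 and 2, 11067 and 8 in MSM ndLN 1 and 2, and 2 and 40 in MSM tdLN 1 and 2, so the difference rests on MSM ndLN 1. No group holds enough libraries to look for a sample far from the others.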

How the results depend on the processing

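The counts of V genes called depended on the model more than the descriptions did. Without the replicate block on pool, 0 V genes were called between SSMs and MSMs in ndLNs (3 with it), 0 between SSMs and MSMs in tdLNs (8) and 1 between nodes in SSMs (10). Over all genes that model called 1352 up and 1456 down, 1160 and 858, and 482 and 314 in the same order. Each number was higher than with the block. Between nodes in MSMs and for the interaction, 0 were called with or without it. A Holm adjustment called 0 in all 5 comparisons. Over all genes it called 109 up and 98 down between subsets in ndLNs and 73 and 35 in tdLNs. Between nodes it called 5 and 2 in SSMs and 0 and 0 in MSMs, and for the interaction 1 and 0. The DESeq2 Wald test called 2 between subsets in tdLNs, 4 between nodes in SSMs, 4 between nodes in MSMs and 1 for the interaction. Over all genes it called 1650 up and 1339 down, 1100 and 832, 172 and 324, and 465 and 212 in the same order. Between nodes in MSMs, an adjusted p-value under 0.05 gave 3 and each lane alone gave 2, and for the interaction the same threshold gave 1. Over all genes these were 26 up and 67 down at that threshold, 5 and 19 on lane 3, 3 and 14 on lane 4, and 171 and 44 for the interaction. Leaving out 1 library at a time, with the remaining sample of a group assumed to vary like the other groups, gave 1 to 4 calls between subsets in ndLNs, 0 to 8 in tdLNs, 0 to 6 between nodes in SSMs, 0 to 2 between nodes in MSMs and 0 for the interaction. The lowest value was reached without SSM tdLN 2 in tdLNs, and without SSM tdLN 2 or SSM ndLN 2 between nodes in SSMs. Calls over all genes fell in those fits too, so these drops are not particular to V genes. Between nodes, between subsets in ndLNs and for the interaction, calls over all genes fell in every fit that left out 1 library.

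With each library left out in turn, the log2 fold change between SSMs and MSMs in tdLNs ran from -3.66 to 11.10 for Igkv4-53, from -1.33 to 10.58 for Igkv12-44, from -0.85 to 7.48 for Ighv1-18 and from -0.78 to 16.22 for Ighv1-58. It turned negative for Igkv4-53 without SSM tdLN 2, for Igkv12-44 without SSM tdLN 2 (-0.91) or MSM tdLN 2, for Ighv1-18 without SSM tdLN 1 or MSM tdLN 1 (-0.57), and for Ighv1-58 without SSM tdLN 1. Between nodes in SSMs it ran from -2.55 to 15.53 for Igkv4-53, negative without SSM tdLN 2 or SSM ndLN 2 (-0.39), and from -0.89 to 16.12 for Ighv1-58, negative without SSM tdLN 1. Where the library left out held the counts, this follows from the fit's construction. Otherwise the cause was not tested.

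The median number of V genes per library was 38.5 at 1 count, 18.5 at 10 counts and 7 at 1 CPM. Of the genes carried by 1 library, 34 at 90% of CPM became 21 at 99% and 18 with at least 100 counts, and 30 to 38 with each library left out. The median shares of the 5 leading genes and the inverse Simpson numbers moved by less than the spread between pools with pseudogenes left out, with either lane and per kb. Depth limits SSM ndLN 1 most, with 307 V counts.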
